A study of Mus musculus with 10 samples.

Results

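The 46 genes described here make up the ATF4 program and the amino acid supply of AtT20 cells, a mouse line of corticotroph cells from a pituitary tumour. They were chosen by name, among 53801 genes in the count table, as known parts of the integrated stress response and of the pathways that make, import and charge amino acids. By role they comprise 12 genes of stress signalling and transcription, 5 other targets of the response, 8 genes of amino acid synthesis, 9 amino acid carriers and 12 genes of tRNA charging and tRNA export. The choice used no measured value of these libraries, although earlier results of the same data were known when it was made.

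RNA sequencing compared AtT20/D16v-F2 cells stably transduced with a short hairpin RNA (shRNA) against *Creb3l1* and cells stably transduced with a non-targeting shRNA, with n = 5 libraries for each. Both lines were made with lentivirus and kept in the same medium, which contained serum and added L-glutamine, so that the control cells also carried an shRNA. One hairpin, shRNA1, and 1 line per hairpin were sequenced, so the effect of the knockdown and any other difference between these lines cannot be told apart, and the p-values measure the spread between libraries of a line.

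The integrated stress response starts with kinases that phosphorylate the translation initiation factor eIF2 alpha, PERK upon stress of the endoplasmic reticulum and GCN2 upon uncharged tRNA. General translation then falls, while translation of *Atf4* mRNA rises, and the ATF4 protein, usually paired with a C/EBP protein, activates genes for amino acid synthesis, uptake and tRNA charging. Since ATF4 is controlled largely at translation, its mRNA level is not a measure of its activity, and no protein was measured in these data. Creb3l1 is a related bZIP factor, and cleavage in the Golgi frees its active N-terminal fragment, which enters the nucleus. Its gene is not a member of the list.

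Between 17420698 and 22205107 reads were counted on genes in each library. *Creb3l1* itself was measured at normalised counts of 3805, 3864, 3695, 3551 and 3531 in the control libraries and at 1093, 1133, 1014, 1159 and 1051 in the knockdown libraries. A normalised count is the read count scaled by the TMM-adjusted library size to the mean library. The knockdown libraries thus retained 29.5% of the control level (log2 fold change -1.76, SE 0.036, adjusted p = 2e-33 by the quasi-likelihood test of edgeR with Benjamini-Hochberg adjustment over all 14336 genes tested). In the control library of replicate 3 the non-coding gene *Gm42418* took 4.13% of all counts, against at most 0.191% in the other 9 libraries. All 5 corticotroph markers examined had counts, with a summed normalised count of 149459 to 160718 in control and 107603 to 114342 in knockdown libraries, mostly from *Pomc*. They did not move together, as *Pomc*, *Tbx19* and *Pcsk1* fell (log2 fold changes -0.51, -0.27 and -0.46, all called in edgeR), *Neurod1* rose (0.62, from 1566 ± 64.6 to 2400 ± 82.3 normalised counts, adjusted p = 3.2e-19) and *Crhr1* was not called. By quantitative PCR of its knockdown lines the study reported a decrease of *Pcsk1* but no change of *Pomc* mRNA. The reason for this difference in *Pomc* was not tested. Of 10 markers of other pituitary cells 6 had counts, summing to 135 to 191 in control and 162 to 208 in knockdown libraries, mostly from *Sox2*. *Prl*, *Tshb*, *Fshb* and *Gnrhr* were at 0 throughout. *Sox2* was called higher with overlapping libraries (log2 fold change 0.33, adjusted p = 0.0048 in edgeR). *Pax7* was lower without overlap, at means of 14.5 and 5.9 normalised counts, too few to be tested. The 5 fibroblast markers summed to 678 to 914 in control and 839 to 1264 in knockdown libraries with *Lum* at 0, and the 3 endothelial markers to 10.6 to 18.3 and 4.28 to 7.45 with *Cdh5* and *Kdr* at 0. The part of these marker differences in the results below was not tested, and in bulk RNA fewer cells of a type and less RNA per cell cannot be told apart.

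All 46 genes passed the filter on low counts, and the lowest read count of any of them in any library was 350. With knockdown, 26 of the 46 (56.5%) changed at an adjusted p under 0.01 in edgeR, 13 of them higher and 13 lower. Across all genes tested 40.7% changed at this threshold, 20.6% higher and 20.1% lower. Among the 1676 genes with a mean count between the lower and upper quartiles of the 46 genes (2653 and 9960), the share was 56.9%, so the share of the 46 genes stood near that of other genes with as many reads. The calls of these 1676 genes leaned upward, with 587 higher and 366 lower, whereas those of the 46 genes were even, a difference that was not tested. The median log2 fold change of the 46 genes was -0.01, beside -0.002 for all genes tested and 0.030 for the 1676.

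The changes were small. The median size of a called change was 0.16 on the log2 scale among the 46 genes and 0.28 among all called genes, and 22 of the 26 called genes moved by less than 20%. Only *Vldlr* changed by at least 1.5-fold, 1 of 46 genes, while 7.73% of all genes tested met both this fold and the adjusted p. For 24 of the 46 genes the ranges of normalised counts of the lines were separate, 10 higher and 14 lower with knockdown, against 36% of all genes tested. The 46 genes were deeply sequenced, with a median mean count of 5904 against 594 for all genes tested, and their median SE was 0.026 on the log2 scale, against 0.053.

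**Figure D1:**
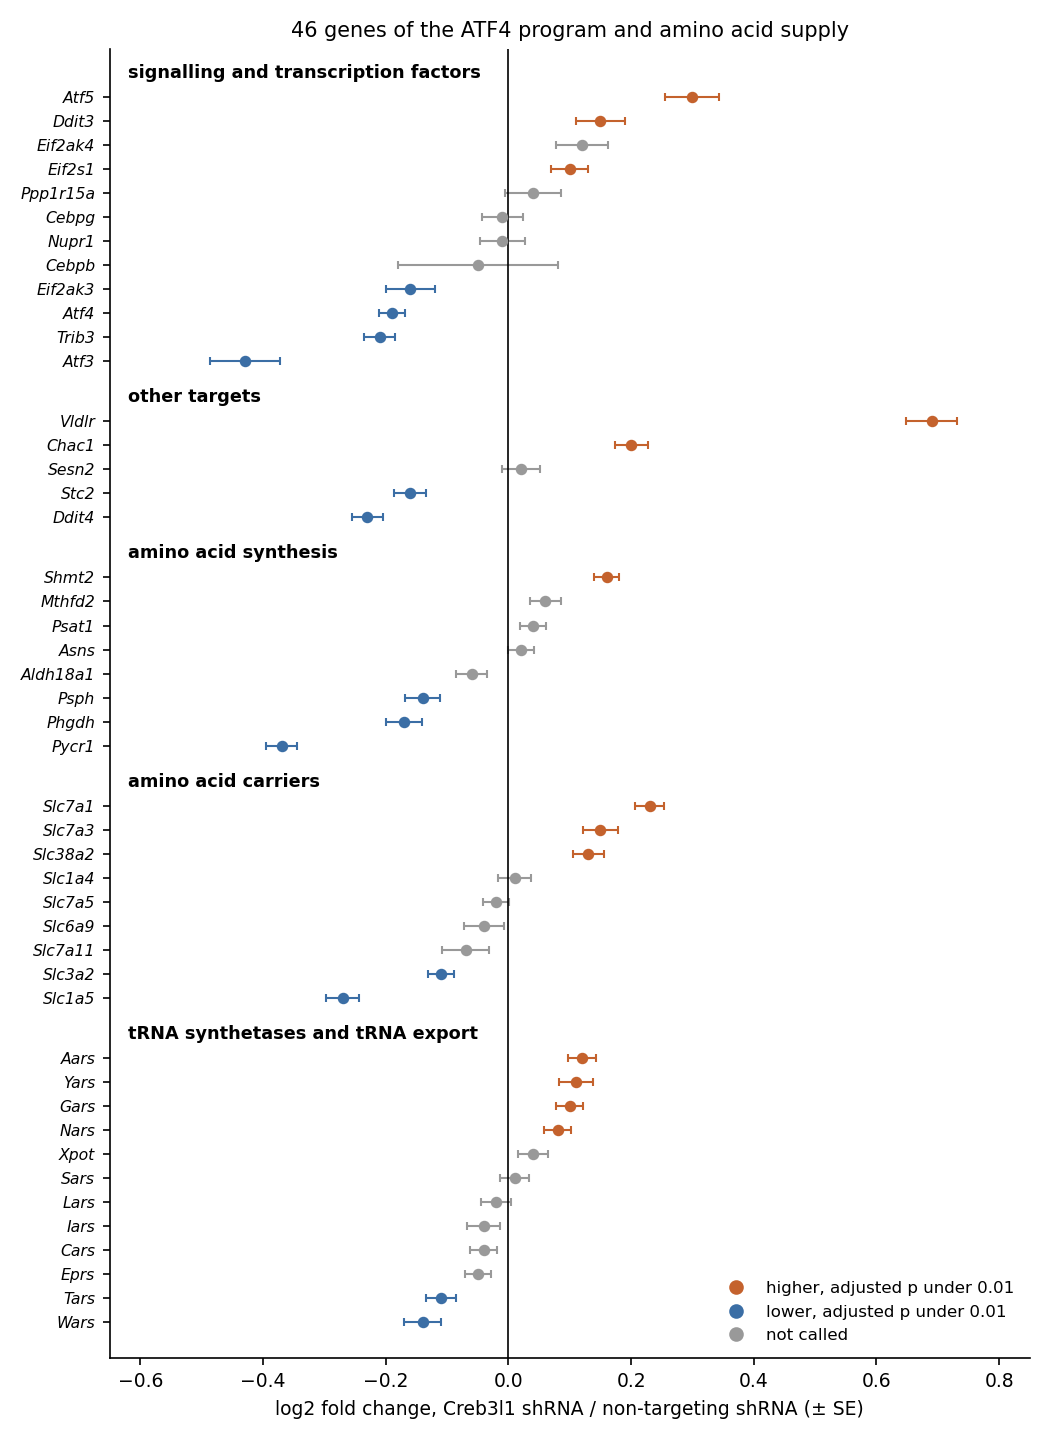
Log2 fold change (horizontal axis, ± SE) of each of the 46 genes in *Creb3l1* knockdown against control libraries, n = 5 each, grouped by role and ordered by value, with orange for higher and blue for lower at an adjusted p under 0.01 in edgeR and grey for genes not called. The values run from -0.43 for *Atf3* to 0.69 for *Vldlr*, and each role holds genes that rose and genes that fell.

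The levels of these genes in control cells spanned a wide range. In RPKM, counts scaled to the length of the longest coding transcript and to the library size, the leading genes were *Slc7a5*, the light chain of a carrier for large neutral amino acids, at 485 ± 7.61 (SD, n = 5), *Asns*, asparagine synthetase, at 477 ± 6.32, and *Shmt2*, the mitochondrial serine hydroxymethyltransferase, at 457 ± 8.34. The SDs of *Slc7a5* and *Asns* overlapped, so their order is not fixed by these libraries. *Atf4* followed at 382 ± 5.53 RPKM. In all, 30 of the 46 genes were in the top 10% of the 12370 tested genes that could be ranked by RPKM. At the other end stood *Vldlr* at 5.13 ± 0.237, *Slc7a11* at 6.41 ± 0.223 and *Eif2ak4*, the kinase GCN2, at 6.98 ± 0.32 RPKM, at the 29.5, 34.3 and 36.3 percentiles of the ranked genes. Libraries of a line varied little, with a median coefficient of variation of 2.34% in control and 2.92% in knockdown libraries. The exception was *Cebpb*, a C/EBP transcription factor, with 16.1% and 10.7%.

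**Figure D2:**
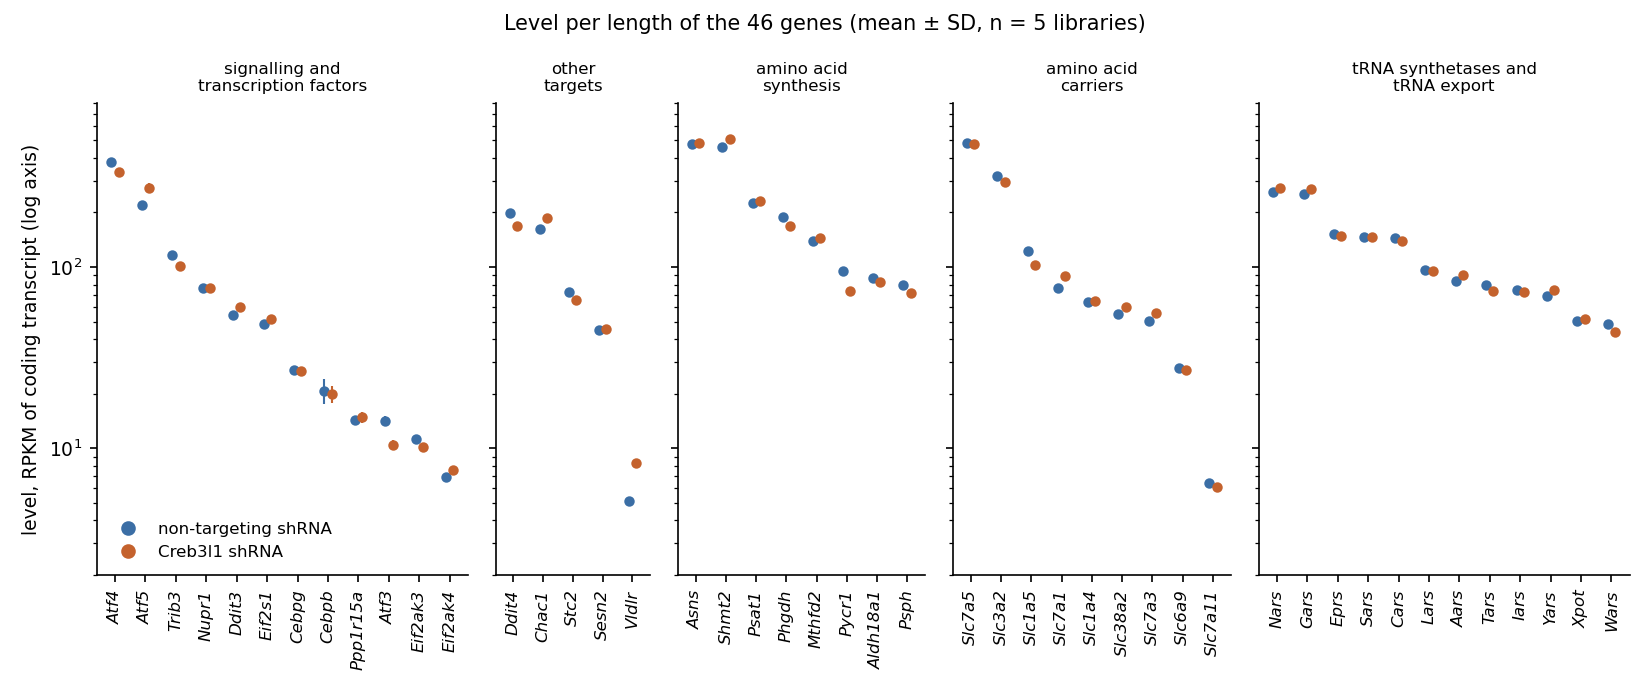
Level of each of the 46 genes in RPKM (vertical log axis, mean ± SD, n = 5 libraries) in control (blue) and knockdown (orange) cells, by role and ordered by the control level. The levels run from 5.13 for *Vldlr* to 485 for *Slc7a5* in control cells, and *Vldlr*, at 8.25 RPKM with knockdown, shows the widest gap between the lines on this axis.

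The ATF4 program is usually recognised by a composite site in target promoters, the C/EBP-ATF response element, of which ATF4 and a C/EBP protein each hold one part. Its word TGATGNAAN was sought on both strands in the RefSeq promoter windows of GRCm38.p6, from 250 bases before to 50 after the transcription start, and 39 of the 46 genes had a window. It was found in 14 of these 39 genes, or in 14 of their 46 windows (30.4%), against 1299 of all 32851 windows (3.95%). The 46 genes were listed largely as known targets, so they are no random draw of promoters. Of the 14 genes with the word, 5 were higher with knockdown (*Vldlr*, *Chac1*, *Aars*, *Yars* and *Gars*), 4 were lower (*Atf3*, *Pycr1*, *Trib3* and *Tars*) and 5 were not called (*Nupr1*, *Asns*, *Slc7a11*, *Slc1a4* and *Iars*). Of the 25 genes without it 6 were higher, 7 were lower and 12 were not called. The median log2 fold change was 0.00 with the word and 0.01 without it, so genes that share the word did not share a direction here.

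Sites of genes that moved in opposite directions, or that did not pass the test, are shown because their letters are nearly alike. The matched word is in capitals, each sequence reads from 5′ to 3′ on the strand of its gene, and CTTGCATCA, for example, is the word on the other strand. The windows of *Vldlr* and *Asns* touch an exon annotated for another transcript of the same gene and are given with shorter flanks. The lower genes come first, then the higher ones and then those not called.
Pycr1: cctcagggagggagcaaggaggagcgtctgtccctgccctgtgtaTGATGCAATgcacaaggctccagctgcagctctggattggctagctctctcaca
Atf3: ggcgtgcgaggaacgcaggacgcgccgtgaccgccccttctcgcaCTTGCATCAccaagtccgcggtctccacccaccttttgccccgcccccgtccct
Vldlr: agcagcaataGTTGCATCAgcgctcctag
Chac1: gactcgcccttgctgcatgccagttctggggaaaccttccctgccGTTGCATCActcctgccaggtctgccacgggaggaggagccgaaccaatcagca
Gars: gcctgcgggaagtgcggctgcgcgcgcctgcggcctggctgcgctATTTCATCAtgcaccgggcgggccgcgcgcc
Asns: cccagccacaTGATGAAACttcccgcacg
Slc7a11: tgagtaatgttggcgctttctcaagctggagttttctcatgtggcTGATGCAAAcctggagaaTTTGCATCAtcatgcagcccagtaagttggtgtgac
In GRCm38.p6 these stretches lie at chr11:120643798-120643896 (*Pycr1*, minus strand), chr1:191183391-191183489 (*Atf3*, minus), chr19:27216809-27216837 (*Vldlr*, plus), chr2:119351003-119351101 (*Chac1*, plus), chr6:55037925-55038000 (*Gars*, plus), chr6:7693214-7693242 (*Asns*, minus) and chr3:50443626-50443724 (*Slc7a11*, minus). The first base of the word stood 111, 201, 194, 31 and 23 bases before the start in *Atf3*, *Vldlr*, *Chac1*, *Gars* and *Asns*, and *Slc7a11* held it on each strand, at 66 and 48 bases before its start. *Vldlr*, which rose, and *Chac1*, which rose less, carry the same matched letters, GTTGCATCA. The site of *Tars*, which was lower (log2 fold change -0.11) and is not printed above, has these letters too. A match is a description of letters and does not show that a factor was bound.

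The word GACGTG, at the core of the G-box that the study examined in another promoter, was found on either strand in 2 of the 39 genes, *Ddit3* and *Eprs*. This was 2 of their 46 windows (4.35%), against 6.38% of all windows. *Ddit3* had it on the other strand, at base 22 counted from its start, and was called higher (log2 fold change 0.15, adjusted p = 0.0021 in edgeR). *Eprs*, the synthetase for glutamate and proline, had it 8 bases before its start and was not called (log2 fold change -0.05, adjusted p = 0.052 in edgeR). In a fit corrected for GC content and transcript length *Ddit3* was again called higher (0.214, adjusted p = 3.4e-06) and *Eprs* was called lower (-0.137, adjusted p = 1.2e-09). The windows of the other 37 genes did not hold these letters, and neither match overlapped the longer word above.

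Among the 12 genes of signalling and transcription, 3 were higher with knockdown, 4 were lower and 5 were not called, with a median log2 fold change of -0.01. *Atf4* (ENSMUSG00000042406, chromosome 15, 80255184 to 80257541, plus strand) encodes the central factor of the response. Its normalised counts were 13418, 13400, 13196, 13638 and 13157 in control and 11661, 11819, 11635, 11778 and 11774 in knockdown libraries. All 5 knockdown libraries were below all 5 control libraries, and they lay close to each other. The means were 13362 ± 194 and 11733 ± 80.3 (SD, n = 5), which gave a log2 fold change of -0.19 (SE 0.021, adjusted p = 3.4e-10 in edgeR), or -12.2%. In a fit corrected for GC content and transcript length *Atf4* was still called, at a smaller -0.115.

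*Atf3* (ENSMUSG00000026628, chromosome 1, 191170296 to 191218039, minus strand) encodes a stress-induced bZIP factor downstream of ATF4. It was measured at 553, 521, 619.8, 558 and 583 normalised counts in control and at 429, 375, 431, 444 and 419 in knockdown libraries. The groups did not overlap, and *Atf3* showed the largest decrease of the 46 genes (log2 fold change -0.43, SE 0.057, adjusted p = 2.8e-08 in edgeR). *Atf5* (ENSMUSG00000038539, chromosome 7, 44812256 to 44816658, minus strand) encodes another bZIP factor whose translation the response favours. Its normalised counts were 7876, 8562, 8370, 8159 and 7703 in control and 9126, 10720, 10308, 9733 and 10356 in knockdown libraries. Every knockdown library was above every control library (log2 fold change 0.30, SE 0.044, adjusted p = 9.3e-05 in edgeR), so *Atf5* rose while *Atf4* and *Atf3* fell.

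*Ddit3* (ENSMUSG00000025408, chromosome 10, 127290774 to 127296288, plus strand) encodes CHOP, the C/EBP-related factor that promotes cell death under prolonged stress. It gave 948, 910.3, 1006, 1017 and 1043 normalised counts in control and 1119, 1036, 1100, 1097 and 1103 in knockdown libraries. The groups overlapped, because knockdown replicate 2 fell below control replicate 5. The log2 fold change was 0.15 (SE 0.04, adjusted p = 0.0021 in edgeR), and without control replicate 2 it was 0.123 and missed the threshold (adjusted p = 0.012). On the same strand, 6.13% of the exon length of *Ddit3* is shared with a second identifier of that name, which had no read in any library.

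**Figure D3:**
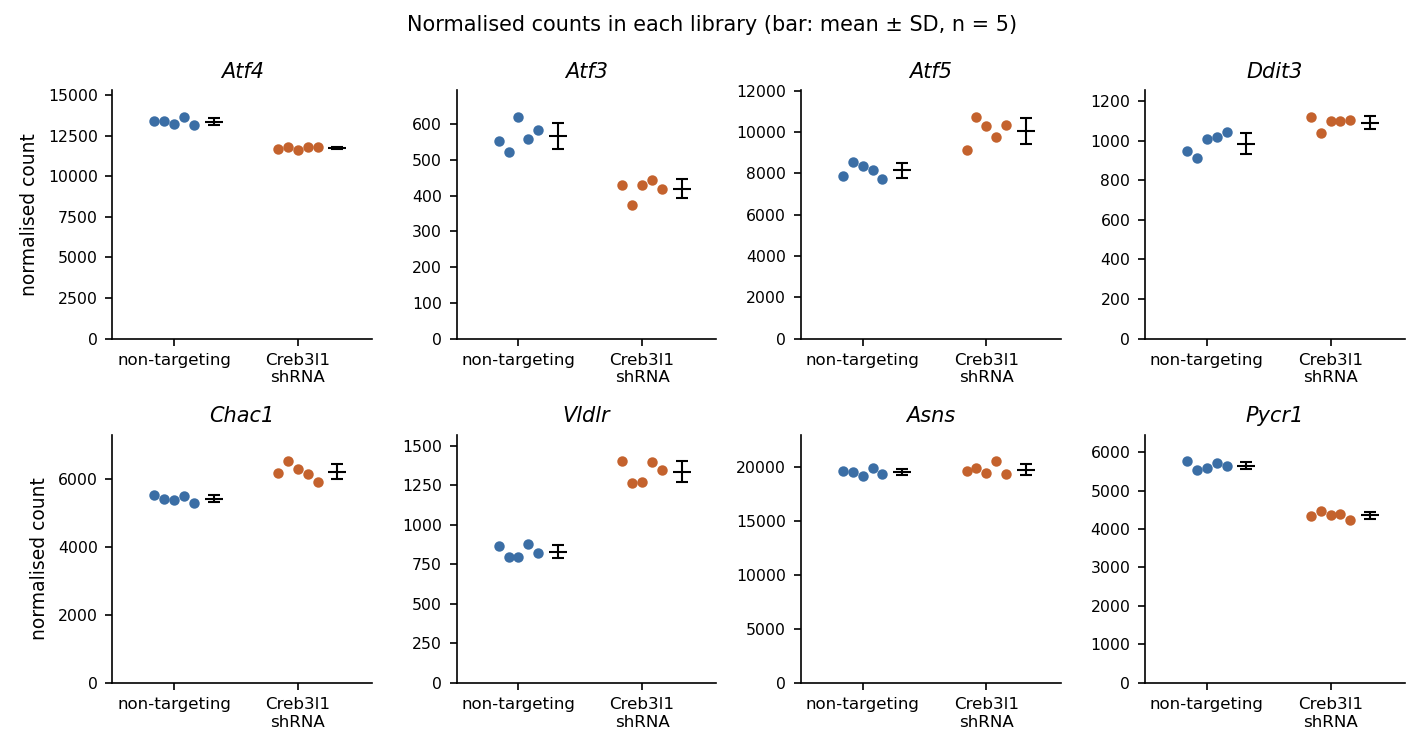
Normalised counts (vertical axes, from 0) of 8 of the 46 genes in each control (blue) and knockdown (orange) library, with the mean ± SD (n = 5) as a black bar beside the points. *Atf4*, *Atf3* and *Pycr1* sit lower and *Atf5*, *Chac1* and *Vldlr* higher in all 5 knockdown libraries, while the points of *Ddit3* and *Asns* overlap between the lines.

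Of the eIF2 kinases on the list, *Eif2ak3*, which encodes PERK, was lower with knockdown without overlap between the lines, at 1036 ± 46.8 and 931 normalised counts (log2 fold change -0.16, adjusted p = 0.0012 in edgeR), and without control replicate 2 it was -0.127 at an adjusted p of 0.01, no longer under the threshold. *Eif2ak4*, which encodes GCN2, was not called (0.12, adjusted p = 0.022). The kinase substrate itself, eIF2 alpha, encoded by *Eif2s1*, was higher by 0.10 (adjusted p = 0.0052) with overlapping libraries, and this call was lost without any one of 5 libraries (control replicates 1, 2 and 3 and knockdown replicates 1 and 4, with values of 0.096, 0.090, 0.100, 0.090 and 0.075). *Ppp1r15a*, which encodes GADD34, the subunit that directs a phosphatase to eIF2 alpha and so ends the response, was not called (0.04, adjusted p = 0.53).

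*Trib3*, a pseudokinase induced by ATF4 and CHOP that in turn restrains ATF4, was lower in every knockdown library, at 4780 ± 47.5 and 4137 ± 44.8 normalised counts (log2 fold change -0.21, adjusted p = 3.9e-09 in edgeR, and -0.133 in the corrected fit). The C/EBP partners *Cebpb* (-0.05, adjusted p = 0.77) and *Cebpg* (-0.01, adjusted p = 0.75) and the stress protein gene *Nupr1* (-0.01, adjusted p = 0.91) were not called, and the sign of each changed under other settings. On the other strand, exons of another gene overlap 20.7% of the *Cebpb* exons, and the strand setting of the counting was not given in the sources used here.

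The 5 other targets include the largest change of the 46 genes. *Vldlr* (ENSMUSG00000024924, chromosome 19, 27216484 to 27254231, plus strand) encodes the very low density lipoprotein receptor. It was measured at 864, 796, 793, 876 and 819 normalised counts in control and at 1400, 1264, 1270, 1393 and 1347 in knockdown libraries. The knockdown libraries were far above the controls, with means of 829.7 ± 38.4 and 1335 ± 65.2 (SD, n = 5), a rise of 60.8% (log2 fold change 0.69, SE 0.041, adjusted p = 6.8e-18 in edgeR). Leaving out any single library kept this value between 0.67 and 0.71.

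*Chac1* (ENSMUSG00000027313, chromosome 2, 119351229 to 119354381, plus strand) encodes a cyclotransferase that degrades glutathione and is a classical readout of ATF4 and CHOP. Its normalised counts were 5515, 5405, 5360, 5496 and 5273 in control and 6174, 6509, 6297, 6132 and 5910 in knockdown libraries. All knockdown libraries were above all controls, by 14.7% on the means (log2 fold change 0.20, SE 0.027, adjusted p = 5e-08 in edgeR). *Ddit4*, an inhibitor of the growth kinase complex mTORC1, moved the other way, from 7081 ± 204 to 6026 ± 70.3 normalised counts (-0.23, adjusted p = 2.9e-10, and -0.147 in the fit corrected for GC content and length), as did *Stc2*, a secreted glycoprotein gene (-0.16, adjusted p = 1.4e-06). *Sesn2*, another inhibitor of mTORC1 upon amino acid shortage, was not called (0.02, adjusted p = 0.55).

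In amino acid synthesis 1 of 8 genes was higher with knockdown, 3 were lower and 4 were not called, with a median log2 fold change of -0.02. *Asns* (ENSMUSG00000029752, chromosome 6, 7675169 to 7693254, minus strand) makes asparagine and is among the best known ATF4 targets. Its normalised counts were 19607, 19536, 19191, 19849 and 19306 in control and 19595, 19897, 19429, 20509 and 19290 in knockdown libraries. The lines overlapped throughout, at means of 19498 ± 259 and 19744 ± 484 (SD, n = 5), and the difference was not called (log2 fold change 0.02, SE 0.021, adjusted p = 0.5 in edgeR).

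*Pycr1* (ENSMUSG00000025140, chromosome 11, 120635712 to 120643769, minus strand) encodes the reductase of the last step of proline synthesis. It was measured at 5762, 5545, 5581, 5718 and 5640 normalised counts in control and at 4344, 4464, 4357, 4396 and 4229 in knockdown libraries. The groups lay far apart, at 5649 ± 91 and 4358 ± 85.8 (SD, n = 5), a fall of 22.9% (log2 fold change -0.37, SE 0.026, adjusted p = 6.6e-16 in edgeR). *Aldh18a1*, the enzyme that opens this pathway, did not overlap between the lines either (6148 to 6299 in control, 5857 to 6093 in knockdown libraries), but its log2 fold change of -0.06 missed the threshold (adjusted p = 0.043).

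The serine and one-carbon genes were split. *Phgdh*, the first enzyme of serine synthesis, was lower (log2 fold change -0.17, adjusted p = 5.2e-06 in edgeR, and -0.089 in the fit corrected for GC content and length), as was *Psph*, the phosphatase of the last step (-0.14, adjusted p = 5.3e-05), with 10.4% of its exons overlapped by another gene on the other strand. *Psat1*, the aminotransferase between them, was not called (0.04, adjusted p = 0.16). *Shmt2*, which passes a carbon of serine to folate in mitochondria, was higher, from 21217 ± 387 to 23733 ± 623 normalised counts (0.16, adjusted p = 2.2e-08), and *Mthfd2*, the next mitochondrial folate enzyme, was not called (0.06, adjusted p = 0.053) but passed in that corrected fit (0.094, adjusted p = 0.00022).

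Among the 9 carriers 3 were higher with knockdown, 2 were lower and 4 were not called, with a median log2 fold change of -0.02. Both carriers for cationic amino acids rose without overlap, *Slc7a1* from 11116 ± 279.9 to 13076 ± 458 normalised counts (log2 fold change 0.23, adjusted p = 4.2e-11 in edgeR, and 0.151 in the corrected fit) and *Slc7a3* by 0.15 (adjusted p = 2.6e-05). *Slc38a2*, a sodium-coupled carrier for small neutral amino acids that starvation induces, rose by 0.13 (adjusted p = 3e-05), but in the fit corrected for GC content and length it was 0.034 and not called (adjusted p = 0.2). *Slc1a5*, the glutamine carrier ASCT2, had the largest decrease among the carriers, from 6916 ± 208 to 5726 ± 163 normalised counts (-0.27, adjusted p = 2.1e-11). Its relative *Slc1a4* was not called (0.01, adjusted p = 0.7), nor was the glycine carrier *Slc6a9* (-0.04, adjusted p = 0.4), of which 30.2% of the exon length is overlapped on the other strand.

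*Slc3a2* encodes the heavy chain that brings the light chains *Slc7a5* and *Slc7a11* to the cell surface, the latter being the cystine carrier. The heavy chain was lower in every knockdown library (log2 fold change -0.11, adjusted p = 2.4e-05 in edgeR, and -0.071 in the corrected fit), whereas *Slc7a5* (-0.02, adjusted p = 0.37) and *Slc7a11* (-0.07, adjusted p = 0.12) were not called. In the fit corrected for GC content and length *Slc7a11* was -0.234 and passed the threshold (adjusted p = 6.5e-08), whereas it was not called with library totals or RLE size factors.

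The light to heavy chain ratio was compared directly, within each library. The log2 ratio of *Slc7a5* to *Slc3a2* was 0.932, 0.941, 0.930, 0.910 and 0.934 in control and 1.036, 1.034, 1.030, 0.979 and 0.998 in knockdown libraries. Every knockdown library was above every control, by 0.09 on average (two-sided exact permutation test over 5 against 5 libraries, p = 0.0079, adjusted p = 0.012 over 6 pairs of genes). That of *Slc7a11* to *Slc3a2* differed by 0.03 with overlapping libraries (exact permutation p = 0.57). The ratios were not computed from the fit corrected for GC content and length, in which *Slc7a11* (-0.234) lay below *Slc3a2* (-0.071) in log2 fold change. The value of 0.0079 is the smallest such a test can give here.

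Targets were set against *Atf4* in the same way. The log2 ratio of *Ddit3* to *Atf4* rose by 0.34, from -3.76 ± 0.088 to -3.43 ± 0.05 (SD, n = 5, exact permutation p = 0.0079, adjusted p = 0.012). That of *Chac1* to *Atf4* rose by 0.38, from -1.30 ± 0.014 to -0.92 ± 0.052, and that of *Asns* to *Atf4* by 0.21, from 0.55 ± 0.0052 to 0.75 ± 0.032, both with the same exact permutation p values. These ratios restate the changes of the single genes and are not separate results. The rise for *Asns*, itself not called (log2 fold change 0.02), mostly reflects the fall of *Atf4* (-0.19). *Trib3* instead kept close to *Atf4*, with log2 ratios of -1.484, -1.483, -1.479, -1.493 and -1.475 in control and -1.499, -1.514, -1.510, -1.484 and -1.513 in knockdown libraries. This small difference of -0.02 also passed the threshold of 0.05 (exact permutation p = 0.016, adjusted p = 0.019), though knockdown replicate 4 lay within the control range. A ratio of mRNA levels says nothing of the amount or activity of the proteins.

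**Figure D4:**
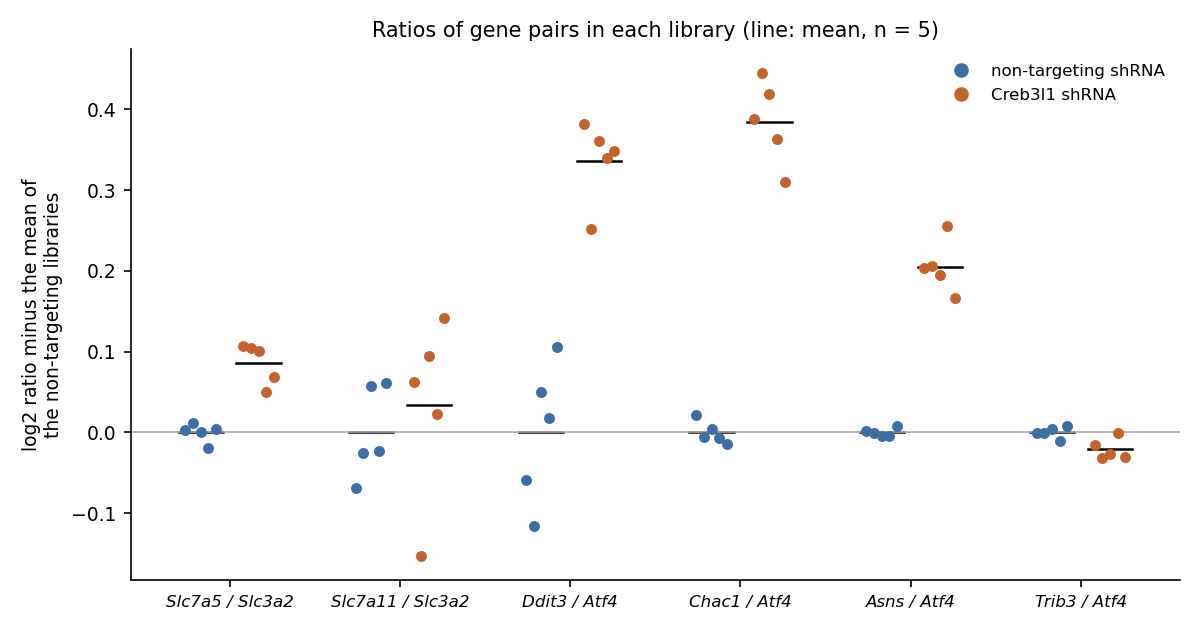
Log2 ratio of 6 pairs of genes in each library, after subtraction of the mean of the control libraries (vertical axis), in control (blue) and knockdown (orange) libraries, with a line at each mean (n = 5). The ratios of *Ddit3*, *Chac1* and *Asns* to *Atf4* lie 0.34, 0.38 and 0.21 higher with knockdown on average, while *Trib3* to *Atf4* lies 0.02 lower and *Slc7a11* to *Slc3a2* overlaps.

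Of the 11 aminoacyl-tRNA synthetases, which charge tRNAs with their amino acids, and the tRNA exporter *Xpot*, 4 were higher with knockdown, 2 were lower and 6 were not called. The higher ones were *Aars* for alanine (log2 fold change 0.12, adjusted p = 4.1e-05 in edgeR), *Yars* for tyrosine (0.11, adjusted p = 0.0013, with overlapping libraries), *Gars* for glycine (0.10, adjusted p = 0.00015) and *Nars* for asparagine (0.08, adjusted p = 0.0027). Without control replicate 1 or 2, *Nars* missed the threshold (0.073, adjusted p = 0.01, and 0.065, adjusted p = 0.017). Of the *Aars* exons 14.3% are shared with a gene on the same strand. The lower ones were *Wars* for tryptophan (-0.14, adjusted p = 0.00014) and *Tars* for threonine (-0.11, adjusted p = 0.00028). These 6 changes were all within 10%, between -9.23% for *Wars* and 8.36% for *Aars*.

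*Sars* (0.01), *Lars* (-0.02), *Iars* (-0.04), *Cars* (-0.04), *Eprs* (-0.05) and *Xpot* (0.04), for serine, leucine, isoleucine, cysteine, glutamate with proline, and tRNA export, were not called, with adjusted p values between 0.052 and 0.84 in edgeR. In the fit corrected for GC content and length *Iars* (-0.085, adjusted p = 0.0015) and *Eprs* (-0.137, adjusted p = 1.2e-09) were called lower.

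Other genes of the pathway, also listed by name, moved in both directions. Of 15 other genes of stress signalling, 4 were higher with knockdown and 5 were lower at an adjusted p under 0.01 in edgeR. The outermost were *Nfe2l2*, an antioxidant factor that PERK can phosphorylate (log2 fold change 0.30), and *Ppp1r15b*, the constitutive partner of the eIF2 alpha phosphatase (0.24), against *Impact*, an inhibitor of GCN2 (-0.44, from 1026 ± 40.4 to 755 ± 56.9 normalised counts), and *Eif2b3*, a subunit of the eIF2 exchange factor (-0.33). Of 21 other ATF4 targets 19 were tested, of which 6 were higher and 9 were lower. The share called was 60% in the signalling list and 78.9% among these targets, against 40.7% of all genes tested. Among the 1676 genes with a mean count between 2653 and 9960 it was 56.9%, but neither list here was matched for reads. Whether either list differs from these shares was not tested. *Jdp2*, a bZIP repressor, rose by 0.37 and the amino acid carrier *Slc38a1* by 0.34, while *Cth*, the cystathionine lyase that yields cysteine, fell by 0.36 and the mitochondrial folate enzyme *Aldh1l2* by 0.25 on the log2 scale.

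Among the synthetases outside the list none was called higher in edgeR or in DESeq2, and 0 of the 12 cytosolic and 1 of the 17 mitochondrial genes (*Cars2*) were higher at an unadjusted p under 0.05 in edgeR. Of 12 other genes of the cytosolic synthetases and their scaffold, 3 (25%) were called, all lower, led by *Qars* for glutamine (log2 fold change -0.18) and the scaffold gene *Aimp2* (-0.17). Of 17 mitochondrial synthetases 6 (35.3%) were called, all lower, led by *Nars2* (-0.24, adjusted p = 0.00062 in edgeR) and *Aars2* (-0.19, adjusted p = 0.00056, with overlapping libraries). Over all genes tested 40.7% were called, 20.6% higher and 20.1% lower. Whether these lists differ from that background or from the 12 listed genes was not tested. The mitochondrial genes with the fewest reads in control were *Wars2*, *Fars2* and *Pars2*, at means of 264, 292 and 369 normalised counts. Their SEs were 0.071, 0.068 and 0.065 on the log2 scale, so a small rise in such genes may have gone uncalled. *Lars2*, the mitochondrial leucine synthetase, stood at 40011 normalised counts in control replicate 3, the library with the high share of *Gm42418*, and at 4341 to 5786 in the other 9, so its value of -1.20 rests on that library and was not called (adjusted p = 0.21).

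**Figure D5:**
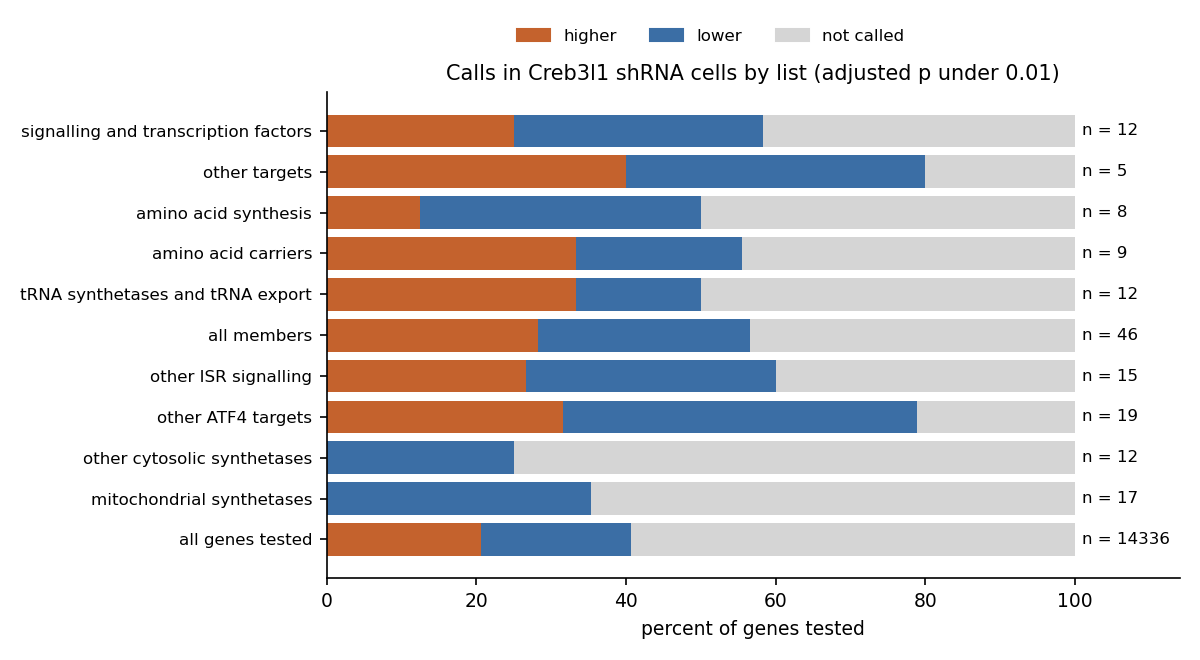
Percent of the genes tested in each list (horizontal axis) that were called higher (orange), lower (blue) or not called (grey) with knockdown at an adjusted p under 0.01 in edgeR, with the number tested at the right. The 46 genes (all members) were called in 56.5% and all genes tested in 40.7%, and both show higher and lower genes in nearly equal shares.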

How the data were processed

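The authors extracted RNA from the AtT20 lines, made poly(A)-selected libraries with a stranded kit and sequenced read pairs on a HiSeq. The submitters' processing notes and the study's methods name FastQC, STAR, featureCounts and DESeq2, the build GRCm38 and an Ensembl annotation. The deposited table holds whole read counts per gene, without normalisation, for 53801 genes in 10 libraries (5 for each line). All columns were mapped to samples by their labels, and 0 were left unused. Symbols were matched to 53620 identifiers through a GENCODE annotation of GRCm38.

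Counts were analysed with edgeR 4.0.16 in R 4.3.3 (filterByExpr, TMM factors, robust quasi-likelihood test without covariates) and p-values were adjusted by Benjamini and Hochberg over 14336 genes, with a threshold of 0.01. Each SE was the log2 fold change divided by the square root of F. The biological coefficient of variation was 5.37%. The fit was tested on simulated data. RPKM used the longest coding transcript. Pair ratios used log2 normalised counts with a prior of 0.5 and exact permutation tests in SciPy 1.17.1.

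The 46 genes, the other lists and the markers were chosen with earlier results of these data known. Values in every library were given for *Creb3l1*, *Atf4*, *Ddit3*, *Chac1*, *Asns* and each called gene with a log2 fold change of at least 0.3 in either direction, and for the other lists the highest and lowest 2 called. Other values by library (*Slc7a5* to *Slc3a2*, *Trib3* to *Atf4*, *Aldh18a1*, *Lars2*) were shown after they were seen.

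The sequence windows came from RefSeq (GRCm38.p6). *Slc7a5*, *Slc7a3*, *Slc1a5*, *Nars*, *Wars*, *Lars* and *Cars* were not searched. Alternatives were DESeq2 1.42.0, RLE factors, library totals, other filters, a replicate block, each library left out, other thresholds, offsets for GC content and length (spline with 5 degrees of freedom, 99.9% of genes) and, chosen after seeing the data, no robust estimation.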

Additional observations from a re-analysis of the deposited data

Results flagged for a closer look

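For the 46 genes and *Creb3l1*, libraries that stood apart from the others of their line were sought with Dixon's critical value in 94 groups of 5. Chance passes this value in about 1 in 20 groups, or 4.7 of 94, and 2 groups passed it. *Ddit3* was at 1036 normalised counts in knockdown replicate 2, below the 1097 to 1119 of the other 4 knockdown libraries. *Psat1*, the aminotransferase of serine synthesis, was at 11666 in control replicate 2, below the 11991 to 12107 of the other 4 control libraries.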

How the results depend on the processing

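The count of 26 called genes was between 22 and 28 in all alternative fits and at an adjusted p under 0.05. With a change of at least 1.5-fold also required, 1108 of all genes tested, 1 of the 46 genes, 1 higher and 0 lower remained past both thresholds. Of the 26 called genes 21 kept their call and direction in all 18 alternative fits, and of 468 values 12 lost the threshold and 0 changed sign. DESeq2 called the same numbers (13 higher, 13 lower). The replicate numbers, taken from the last digit of the sample labels, did not pair the samples (correlations of same-numbered deviations -0.0647 to 0.0401, and 2 of 5 control libraries correlated best with their own number). With the replicate block 26 genes were called, 13 higher and 13 lower, and 6013 of all genes. Without robust estimation, an alternative chosen after seeing the data, 25 were called, *Eif2s1* being lost (0.099, adjusted p = 0.016 in edgeR). With correction for GC content and length by offsets 12 were higher and 16 lower. *Eif2s1* (0.057) and *Slc38a2* (0.034) were lost, and *Mthfd2* (0.094), *Slc7a11* (-0.234), *Iars* (-0.085) and *Eprs* (-0.137) were added. At an adjusted p under 0.05 *Eif2ak4* and *Aldh18a1* were added. The 6 pair ratios kept their direction and side of the threshold with library totals, with a prior of 2 counts and without each single library, and were not computed with the offsets. Of the called genes still called, *Atf4* (-0.115), *Trib3* (-0.133), *Ddit4* (-0.147), *Phgdh* (-0.089), *Slc3a2* (-0.071) and *Slc7a1* (0.151) were over 1.5 times smaller with the offsets. Values near 0 that were never called at 0.01 changed sign in *Cebpb* (0.014 with the offsets, 0.015 without control replicate 2, 0.015 without knockdown replicate 1), *Cebpg* (0.002 without control replicate 3, 0.013 without knockdown replicate 3), *Nupr1* (0.006 with library totals, 0.020 with the offsets, 0.013 and 0.002 without control replicates 4 and 5, 0.011 and 0.009 without knockdown replicates 2 and 3), *Slc7a5* (0.006 with the offsets), *Slc1a4* (-0.000 without knockdown replicate 2), *Sars* (-0.000 without control replicate 2, -0.002 without knockdown replicate 2) and *Xpot* (-0.055 with the offsets), for which no cause was tested. The values without a single library ranged from -0.125 to 0.015 for *Cebpb*, -0.030 to 0.013 for *Cebpg*, -0.030 to 0.013 for *Nupr1*, -0.000 to 0.029 for *Slc1a4* and -0.002 to 0.023 for *Sars*. The median of all genes stayed between -0.018 and 0.010 in every fit. The median SE of these genes was 0.026, and a change had to be well above its SE to be called. *Aldh18a1* (-0.06, SE 0.025) was not called at an adjusted p under 0.01 in edgeR. The smallest called change in the main fit was that of *Nars* (0.08, SE 0.022), so smaller changes may have gone undetected at this depth.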
